A study of Homo sapiens with 18 samples.

Results

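Coactivators and corepressors are the proteins through which estrogen receptor alpha (ERα) acts on chromatin and on RNA polymerase. The set described here holds 9 genes, NCOA1, NCOA2, NCOA3, EP300, CREBBP, CARM1, MED1, NCOR1 and NRIP1, out of 23500 entries with an identifier in the deposited expression table. They were picked by name, as well known partners of the receptor, and each matched exactly 1 entry of the table through its RefSeq transcripts. Peaks of the histone mark H3K4me1 and of ERα that lay inside the genes or within 100 kb of either end were added.

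All samples came from ZR751 (ZR75-1), an established ER+ breast cancer line. ZR751shMLL3 cells carry a lentiviral short hairpin RNA against MLL3, a histone H3K4 methyltransferase whose gene symbol is KMT2C, and ZR751shLucif control cells carry a hairpin against luciferase. Both are stably transduced lines that were flow sorted for GFP and used at early passages in standard serum-containing medium, each rests on a single hairpin, and no hormone or drug treatment is given for these samples. RNA-seq gave gene expression, and ChIP-seq gave the places of H3K4me1, ERα and SP1, with 2 replicates per line and assay and 1 input library per line. The study calls the replicates of both assays biological, and those of ChIP-seq came from 1 experimental repetition.

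In its active form ERα binds DNA and recruits p160 coactivators, which in turn bring in the acetyltransferases p300 and CBP and the arginine methyltransferase CARM1. Mediator links these factors to RNA polymerase. Corepressors such as NCOR1 and RIP140, the product of NRIP1, bind the same receptor surface region or its antagonist-bound form and limit transcription. In luminal breast cancer the balance of these proteins is known to matter for the response to anti-estrogens, and NCOA3 was first described as a gene amplified in breast cancer (AIB1).

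The sequences shown first are those that carry the ERα results. The estrogen response element was searched as GGTCANNNTGACC, which reads the same on both strands, with N for any base. In the windows of the 9 genes, 3.164 Mb of GRCh37 in all, this element occurred 2 times, in the windows of EP300 and NRIP1. The stretches below give each element in capitals with 20 bases on each side, on the plus strand of GRCh37. The EP300 element lies inside the gene at chr22:41517519-41517531, 28.9 kb after its start, and the NRIP1 element lies at chr21:16437962-16437974, 0.3 kb after the annotated start of that gene.
EP300 element: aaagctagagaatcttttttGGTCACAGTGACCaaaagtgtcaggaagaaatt
NRIP1 element: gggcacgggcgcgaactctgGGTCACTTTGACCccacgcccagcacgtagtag

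Just 2 ERα peaks near the 9 genes ranked alike enough in both replicates to be called reproducible, by the permissive threshold explained with the ERα results, both in ZR751shLucif. The 201 bases around their summits are given below, plus strand of GRCh37, since neither holds an exact element. The site near NRIP1 (chr21:16235763-16235963) holds an element with 1 base different, in capitals, which starts at 16235848. The difference is T3G, with the base of the element first and positions counted from 1 at the 5′ end of the element on the plus strand. The site near MED1 (chr17:37640565-37640765), in an intron of the neighbouring gene CDK12, holds no such element and no half-site GGTCA on either strand, so nothing is in capitals.
NRIP1 site: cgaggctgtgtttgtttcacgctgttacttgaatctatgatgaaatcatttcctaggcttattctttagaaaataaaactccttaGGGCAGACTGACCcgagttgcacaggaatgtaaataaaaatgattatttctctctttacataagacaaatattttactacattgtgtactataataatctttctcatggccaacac
MED1 site: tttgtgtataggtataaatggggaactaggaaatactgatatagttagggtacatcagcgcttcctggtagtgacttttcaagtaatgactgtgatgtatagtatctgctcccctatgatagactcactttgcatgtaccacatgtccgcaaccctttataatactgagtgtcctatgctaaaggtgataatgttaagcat

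For scale, the exact element lay within 100 bp of the summit in 5.96% of the 1242 reproducible ERα peaks of ZR751shLucif and 9.3% of the 1151 of ZR751shMLL3, and in 0 of the stretches of the same length 1000 bp away. With at most 1 of its fixed bases different it lay at 18.2 and 22.2% of the peaks, against 0.242 and 0.521% of those stretches. The half-site lay at 40 and 40.7% of the peaks and at 25.4 and 24.3% of the stretches. The tolerance of 1 base was chosen after the NRIP1 sequence had been seen. These matches describe letters, not bound sites.

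The RNA values are fragments per kilobase of transcript, scaled to the mapped fragments of the library (FPKM), which can be compared between genes because they are per length. The table gives no counts, so the number of fragments behind a gene cannot be read from it, although the study states an approximate read depth per library. Tests were made on log2(FPKM + 0.5) with limma over the 11134 genes whose mean on this scale was above 1, which all 9 genes passed, and every fold change is on this scale. The targeted gene KMT2C had 2.34 and 6.77 FPKM in replicates 1 and 2 of ZR751shLucif, against 1.07 and 2.69 in those of ZR751shMLL3. The lines overlapped, and the log2 fold change of -1.02 had a limma adjusted p of 0.629 (Benjamini-Hochberg). With each library left out it ran from -1.70 to -0.35. The study reports the knockdown of MLL3 from quantitative PCR on biological replicates, made soon after transduction. That is a separate measurement, which was not re-analysed here, and the RNA-seq values of KMT2C do not replace it. The control libraries correlated at 0.900 with each other, against 0.969 between the ZR751shMLL3 libraries, which does not show which control differs. ZR751shLucif replicate 2 had the lowest KRT8, KRT18 and KRT19 (1652, 1002 and 1591 FPKM). The FPKM of ZR751shLucif replicate 1 summed to 701359, against 487395 to 524210 in the others. By the library names, its number stands apart from those of the others, which run consecutively. Whether this marks a batch was not tested. Without that library the log2 fold changes of the 9 genes were -0.33 for NCOA2, -0.30 for NCOA3, -0.02 for EP300, -0.02 for CREBBP, -0.04 for CARM1, -0.13 for MED1, -0.14 for NCOR1, -1.06 for NRIP1 and 0.23 for NCOA1. KRT8 (1652 to 4573 FPKM), KRT18, KRT19, GATA3, FOXA1, EPCAM, CDH1, PGR and ESR1 were present in every library, with a lowest value of 9.33 FPKM (PGR). KRT5, KRT14 and TP63 of basal cells and PTPRC and CD3E of leukocytes were at 0.101 FPKM or less, as were PECAM1 and CDH5 of endothelium, while the endothelial VWF had 0.125 to 0.256. Of the fibroblast genes COL1A2, COL3A1 and DCN were at 0.104 or less, whereas COL1A1 had 13.1 to 17.8 FPKM, and of the leukocyte genes CD68 had 7.66 to 13.9 and LYZ 0.977 to 4.85. In bulk RNA a lower level in each cell and fewer expressing cells cannot be told apart.

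**Figure D1:**
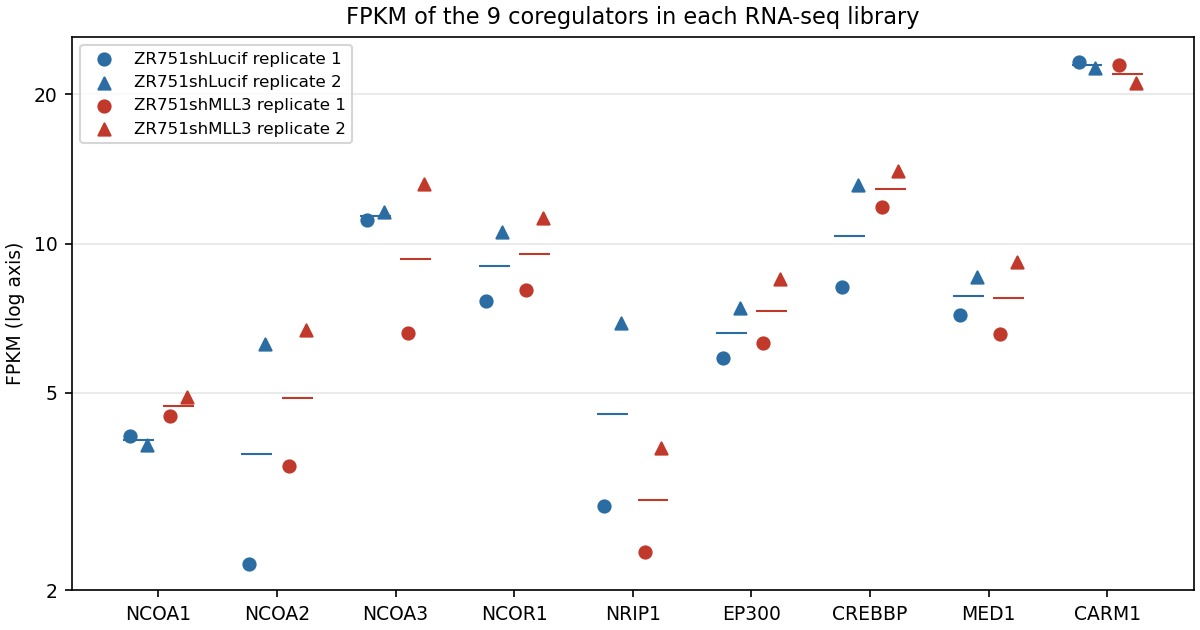
FPKM (log axis) of each coregulator gene in the 4 RNA-seq libraries, with circles for replicate 1, triangles for replicate 2 and a short line at the geometric mean of each cell line. The lines overlap for every gene but NCOA1, and the triangle lies above the circle in most pairs.

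None of the 9 coregulators passed an adjusted p of 0.05 between ZR751shMLL3 and ZR751shLucif. Limma called 0 of the 9, where 0.00898% of all genes tested (1 of 11134) were called, and 0 of them had an unadjusted p under 0.05, as 889 of all genes did. In 1 of the 9 genes both libraries of one line lay on the same side of both libraries of the other, against 42.9% of all genes tested. The 9 had a median log2 fold change of 0.08, beside -0.10 over all genes tested. In ZR751shMLL3 5 of them were higher and 4 lower. The median of the 9 turned to -0.13, with 1 higher and 8 lower, without ZR751shLucif replicate 1. The intervals were wide. Across the 9 genes, the 95% limits of limma reached from -1.57 (NRIP1) to 1.54 (NCOA2) on the log2 scale, with 2 libraries per line. Those of CARM1 were -0.69 to 0.57. For each gene, differences inside its own limits were not excluded.

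The p160 coactivators bind the receptor directly and act as the platform for the other enzymes. NCOA1 (SRC-1; chr2:24714123-24993571 of GRCh37, plus strand) had 4.09 and 3.93 FPKM in replicates 1 and 2 of ZR751shLucif, against 4.50 and 4.91 in those of ZR751shMLL3. It was the single gene of the 9 whose lines did not overlap, with both ZR751shMLL3 libraries higher. The difference was small, with a log2 fold change of 0.21 (standard error, SE, of 0.261, 95% interval -0.43 to 0.84) and a limma adjusted p of 0.798. With each library left out in turn it lay between 0.15 and 0.26, and with the GC content trend removed it was 0.41 (adjusted p of 0.837 by limma).

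NCOA2 (SRC-2; chr8:71022017-71316043, minus strand) had 2.26 and 6.28 FPKM in ZR751shLucif, against 3.57 and 6.70 in ZR751shMLL3 cells. In both lines the level in replicate 2 was far above that in replicate 1, and the lines overlapped. Its log2 fold change was 0.32 (SE 0.504, adjusted p of 0.837 by limma), and it was -0.33 without ZR751shLucif replicate 1 and 0.97 without ZR751shLucif replicate 2.

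NCOA3 (SRC-3 or AIB1; chr20:46130631-46285621, plus strand) had 11.2 and 11.6 FPKM in ZR751shLucif, against 6.60 and 13.2 in ZR751shMLL3 cells. The control libraries lay close together, between the 2 ZR751shMLL3 libraries. The log2 fold change was -0.27 (SE 0.372, adjusted p of 0.816 by limma), and it was 0.20 without ZR751shMLL3 replicate 1 and -0.74 without ZR751shMLL3 replicate 2.

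As FPKM are per length, the 3 p160 genes could be added up within a library. NCOA3 made up 63.7 and 53.2% of their summed FPKM in the ZR751shLucif libraries, and 45.0 and 53.2% in those of ZR751shMLL3. NCOA2 made up 12.9 and 28.8%, then 24.3 and 27.0%, and NCOA1 the rest. NCOA3 was thus the largest p160 transcript in all 4 libraries, and the shares of the lines met at 53.2%. The summed level was 17.5 and 21.8 FPKM in ZR751shLucif, against 14.7 and 24.8 in ZR751shMLL3 cells, where the ZR751shMLL3 libraries enclosed the controls.

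EP300 and CREBBP encode p300 and CBP, the acetyltransferases that mark active enhancers at H3K27. EP300 (chr22:41488596-41576081, plus strand) had 5.88 and 7.41 FPKM in ZR751shLucif, against 6.30 and 8.50 in ZR751shMLL3 cells. Its log2 fold change was 0.14 (SE 0.296, adjusted p of 0.879 by limma), with overlapping lines. CREBBP (chr16:3775055-3930714, minus strand) had 8.19 and 13.1 FPKM in ZR751shLucif, against 11.9 and 14.0 in ZR751shMLL3 cells, a log2 fold change of 0.30 (SE 0.323, adjusted p of 0.766 by limma). The low value came from ZR751shLucif replicate 1, and without that library the log2 fold change of CREBBP was -0.02. The ratio of CREBBP to EP300 FPKM was above 1 in every library, at 1.39 and 1.77 in ZR751shLucif and 1.89 and 1.65 in ZR751shMLL3.

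CARM1 methylates arginines of histone H3 and of the coactivators themselves. CARM1 lies at chr19:10982229-11033751 on the plus strand, and had 23.3 and 22.6 FPKM in ZR751shLucif, against 22.9 and 21.1 in ZR751shMLL3 cells. Its pooled SD between replicates on the log2 scale was the smallest of the set, at 0.06081, close to 0.06255 for NCOA1. In FPKM, NCOA1 had the smaller SD in both lines. The log2 fold change was -0.06 (SE 0.261, adjusted p of 0.948 by limma), with a 95% interval of -0.69 to 0.57. MED1, the Mediator subunit that contacts nuclear receptors, lies at chr17:37560538-37607525 on the minus strand. It had 7.17 and 8.55 FPKM in ZR751shLucif, against 6.56 and 9.19 in ZR751shMLL3 cells, and its log2 fold change was -0.01 (SE 0.297, adjusted p of 0.995 by limma). The ZR751shMLL3 libraries lay on both sides of the controls. MED1 was 0.06 with quantile normalization and 0.18 with the GC content trend removed, so its sign did not hold. CARM1 was 0.01 with quantile normalization and -0.30 with the GC trend removed, where its lines no longer overlapped (adjusted p of 0.844 by limma), although its FPKM differed little between libraries. The CARM1 transcript has the highest GC content of the 9, at 61.5%.

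The corepressor NCOR1 recruits histone deacetylase 3 to unliganded or antagonist-bound receptors. NCOR1 (chr17:15932379-16121499, minus strand) had 7.68 and 10.6 FPKM in ZR751shLucif, against 8.06 and 11.3 in ZR751shMLL3 cells. The log2 fold change of 0.08 (SE 0.315, adjusted p of 0.943 by limma) was smaller than the gap between the replicates of either line.

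NRIP1, itself an estrogen-induced gene in breast cancer cells, encodes RIP140, which binds agonist-bound receptors and limits their output. It lies at chr21:16333556-16438257 on the minus strand. Its levels were 2.96 and 6.91 FPKM in ZR751shLucif, against 2.39 and 3.87 in ZR751shMLL3 cells, so that ZR751shLucif replicate 1 lay between the ZR751shMLL3 libraries. The difference of NRIP1 was the largest of the set in the fit of all 4 libraries on the FPKM as deposited, with a log2 fold change of -0.51 (SE 0.437, 95% interval -1.57 to 0.55), and a limma adjusted p of 0.713. The value rested on ZR751shLucif replicate 2. Without it the log2 fold change was 0.04, and without ZR751shLucif replicate 1 it was -1.06. Over all genes tested, fold changes were higher where transcripts had more GC (a Spearman correlation of 0.522 across 10889 genes, which are not independent and share the 4 libraries). The NRIP1 transcript has the lowest GC content of the 9, at 38.8% against a median of 48.4% for genes tested, and with the GC trend removed its log2 fold change was -0.17. It was then no longer the largest, with NCOA2 at 0.55, NCOA1 at 0.41 and CARM1 at -0.30, and neither was it without ZR751shLucif replicate 2. Set against NCOR1 in the same library, NRIP1 FPKM came to 0.386 and 0.654 of NCOR1 in ZR751shLucif and to 0.297 and 0.343 in ZR751shMLL3, a ratio that was not tested.

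**Figure D2:**
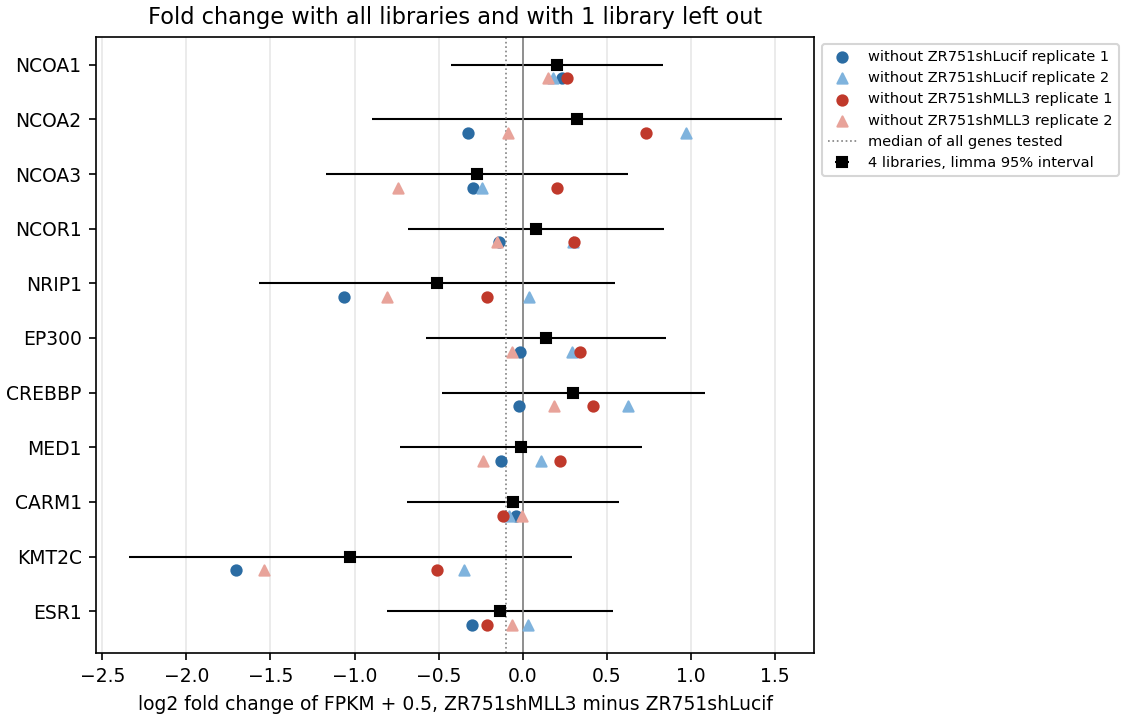
Log2 fold change of FPKM + 0.5 (ZR751shMLL3 minus ZR751shLucif) of the 9 genes, KMT2C and ESR1, with black squares and 95% limma intervals for all 4 libraries and coloured points for fits with 1 library left out. Every interval crosses 0, and points lie on both sides of 0 for 7 of the 9 coregulators, the exceptions being NCOA1 and CARM1.

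In order of mean level in ZR751shLucif, the genes ran from CARM1 (22.95 FPKM) through NCOA3, CREBBP, NCOR1, MED1, EP300, NRIP1 and NCOA2 to NCOA1 (4.01 FPKM). CARM1 lay above all others in every library, and each other neighbouring pair in this order overlapped between its libraries. In ZR751shMLL3 the order ran from CARM1 (22.02 FPKM) through CREBBP, NCOA3, NCOR1, MED1, EP300, NCOA2 and NCOA1 to NRIP1 (3.13 FPKM). There, CARM1 at the top and NRIP1 at the bottom (2.39 and 3.87 against 4.50 and 4.91 for NCOA1) stood apart from their neighbours. CARM1 was at the 67.0th percentile of the genes tested by mean level, and the other 8 were below the middle, from the 16.4th (NRIP1) to the 46.9th (CREBBP).

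The replicates of a line differed in a shared way. In ZR751shLucif 7 of the 9 genes were higher in replicate 2 than in replicate 1, against 34.8% of all genes tested, and in ZR751shMLL3 8 of the 9 were, against 58.0%. CARM1 was the gene that was lower in replicate 2 in both lines. The gaps were widest for NCOA2 (1.30 in ZR751shLucif and 0.82 in ZR751shMLL3 on the log2 scale) and NRIP1 (1.10 and 0.60). The longest transcripts of the 9 genes measure 3295 (CARM1) to 11039 (NCOR1) bases, and over all genes the gap between replicates went with transcript length at Spearman correlations of 0.284 in ZR751shLucif and 0.220 in ZR751shMLL3. Whether length has a part in the gaps of these genes was not tested. The median within-line SD of all genes tested was 0.283 on the log2 scale, and 5 of the 9 genes had a larger one.

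The genes whose values, centred over the 4 libraries on the log2 scale, lay nearest to each coregulator were THRAP3 for NCOA1, KMT2A for NCOA2, PTPRJ for NCOA3, NR3C1 for EP300, ARID1A for CREBBP, UROS for CARM1, WNK1 for MED1, ESYT2 for NCOR1 and OSBPL8 for NRIP1. The Euclidean distances were 0.0157 (NR3C1, the glucocorticoid receptor gene) to 0.129 (KMT2A, another H3K4 methyltransferase gene). KMT2A had 1.59 and 4.50 FPKM in ZR751shLucif, against 2.88 and 5.15 in ZR751shMLL3 cells, with replicate 2 higher in both lines as for NCOA2. ARID1A, a subunit of the SWI/SNF remodeller, had 7.98 and 13.1 FPKM in ZR751shLucif, against 11.6 and 13.8 in ZR751shMLL3 cells. All of these distances rest on 4 libraries.

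A wider list of 50 genes for ESR1 and other coregulators of nuclear receptors was examined in the same way, and 48 passed the filter (PPARGC1A and PPARGC1B did not). Limma called 0 of the 48 at an adjusted p of 0.05, beside 1 of the 11134 genes tested. Of the 48, 3 had an unadjusted p under 0.05, beside 889 of the 11134. HDAC2 and CDK8 were among the 3 (CDK8 was named after its values were seen). The lines did not overlap in 16 of the 48, against 42.9% of all genes tested. In ZR751shMLL3 15 of the genes were higher and 33 lower, with a median log2 fold change of -0.14 beside -0.10 over all genes tested. ESR1, the receptor itself, had 11.2 and 14.2 FPKM in ZR751shLucif, against 12.1 and 10.8 in ZR751shMLL3 cells, which gave -0.14 on the log2 scale (adjusted p of 0.875 by limma).

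Among the genes of the wider list that were higher in ZR751shMLL3 was KAT2B (PCAF), an acetyltransferase, with 3.20 and 5.29 FPKM in ZR751shLucif, against 4.56 and 6.21 in ZR751shMLL3 cells. Its lines overlapped, and its log2 difference was 0.33 (SE 0.336, adjusted p of 0.757 by limma), or 0.01 without ZR751shLucif replicate 1.

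The largest differences downwards were those of the histone deacetylase HDAC2 (-0.85), the RNA helicase DDX5 (-0.73) and the ER-binding repressor PHB2 (-0.71), with limma adjusted p of 0.613, 0.676 and 0.642. HDAC2 had 14.8 and 8.12 FPKM in ZR751shLucif, against 6.14 and 5.60 in ZR751shMLL3 cells, so that its lines did not overlap. PHB2 had 874 and 404 FPKM in ZR751shLucif, against 358 and 368 in ZR751shMLL3 cells. DDX5 had 329 and 111 FPKM in ZR751shLucif, against 101 and 130 in ZR751shMLL3 cells, where the lines overlapped. In all of these the highest value was that of ZR751shLucif replicate 1, and without it the log2 fold changes were -0.44 for HDAC2, 0.05 for DDX5 and -0.15 for PHB2.

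H3K4me1 marks enhancers and is laid down by MLL3 and its relatives, and peaks of it near the 9 genes were compared next. The deposited lists hold up to 300000 peaks per library, each with a signal that ranks it within its own list. The irreproducible discovery rate (IDR) measures how far 2 replicates rank a peak alike. Peaks at an IDR of 0.1 or less, a threshold of the study, were taken as reproducible. The IDR was fitted here on the deposited lists and kept 6576 peaks in ZR751shLucif and 1654 in ZR751shMLL3. The study lists more between true replicates in either line. Near the 9 genes there were 4 of the peaks kept here in ZR751shLucif, at 3 genes, and 2 in ZR751shMLL3, at 1 gene. Over all genes tested, 24.1% had a reproducible peak in the same kind of window in ZR751shLucif and 10.9% in ZR751shMLL3. These are sets of 1 per line, so there is no test of the difference. At an IDR of 0.05 the counts near the 9 genes were 0 in ZR751shLucif and 2 in ZR751shMLL3, so the order of the lines depended on the threshold.

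All 6 of these H3K4me1 peaks lay in introns. In ZR751shLucif 2 were in NCOA2, 80.7 kb (chr8:71234729-71235858) and 251 kb (chr8:71064251-71065418) after its start, with mean ranks of 14262.5 and 22213. A further ZR751shLucif peak, upstream of MED1 (position -83.6 kb from its start), lay in CDK12 (chr17:37690656-37691658, mean rank 14152). NCOA3 had peaks in both lines. The ZR751shLucif peak 73.9 kb after its start (chr20:46204099-46205081) ranked 933 and 30671 in the replicates and overlapped the ZR751shMLL3 peak at chr20:46204644-46205483, which ranked 857 and 6366. A second ZR751shMLL3 peak lay 5.17 kb after the start (chr20:46135385-46136224, ranks 937 and 5684), and the ZR751shLucif lists held the same place at ranks 29088 and 157868.

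Each of the 4 ZR751shLucif peaks overlapped a peak listed in both ZR751shMLL3 libraries, so none was missing from the other line. Sites listed in all 4 H3K4me1 libraries, at any rank, numbered 79 in the 9 windows. They were found at all 9 genes, and 88.7% of all genes tested had at least 1. Their density of 25 per Mb compared with 22.7 per Mb over the windows of all genes tested. NCOA2 had the most, 27, of which 22 were inside the gene, followed by NCOA3 with 12 and by NRIP1 and CREBBP with 11 each. EP300 and CARM1 had 1 each. Windows differ in length, with 494 kb for NCOA2, 287 kb for EP300 and 252 kb for CARM1, and the counts per gene were not scaled by it. The site that ranked best in its poorest library was in NCOA2, 130 kb after the start, with ranks of 12827 and 10285 in ZR751shLucif and 4547 and 3188 in ZR751shMLL3. In CREBBP a site 108 kb after the start ranked 13138 and 14096, then 4202 and 22920.

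**Figure D3:**
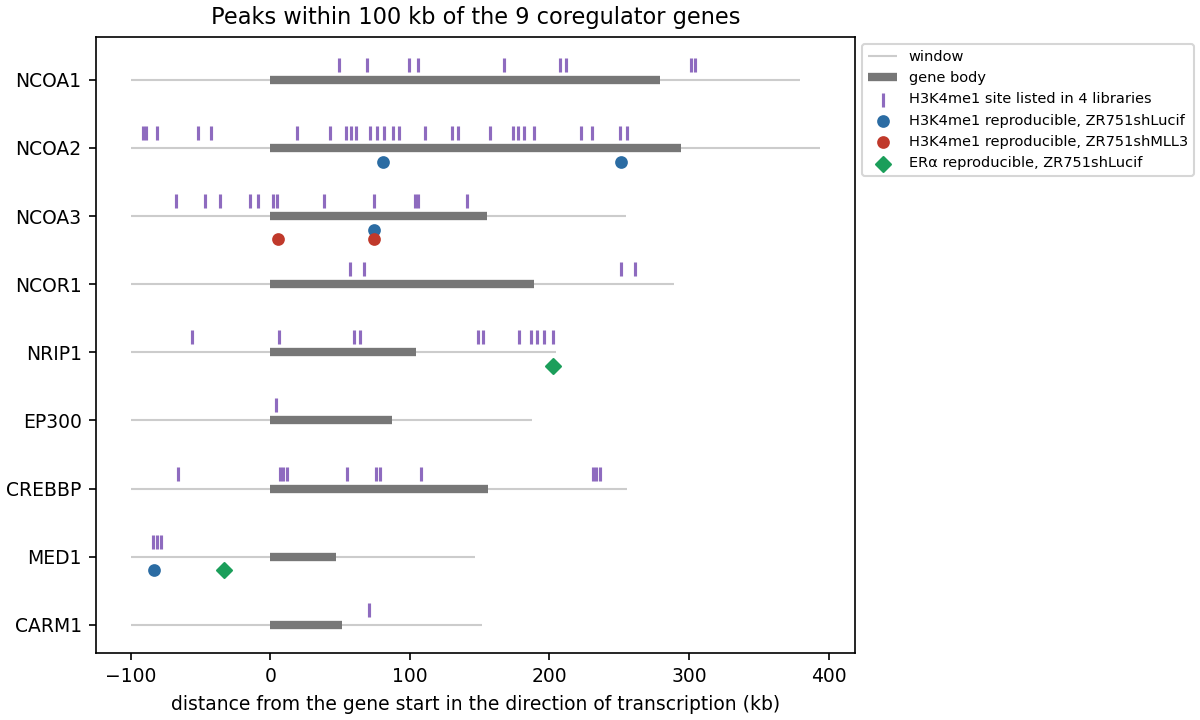
Distance in kb from the start of each gene, in the direction of transcription, of the H3K4me1 sites listed in all 4 libraries (purple ticks) and of the reproducible H3K4me1 (circles) and ERα (diamonds) peaks, with gene bodies as thick bars and windows as thin lines. NCOA2 carries 27 ticks and NCOA3 the single position that is reproducible in both lines, and both ERα diamonds lie outside the genes.

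Counted per library at the false discovery rate (FDR) of 0.01 or less that SPP assigned, the 9 windows held 202 and 290 H3K4me1 peaks in replicates 1 and 2 of ZR751shLucif, against 47 and 120 in those of ZR751shMLL3. Both knockdown libraries were lower. On average there were 246 ± 62.2 (SD, n = 2) peaks against 83.5 ± 51.6 (SD, n = 2), which differ by -162.5 peaks. The exact permutation test gave p = 0.3333 (two-sided), and with 2 libraries per line it can give no smaller value. These counts follow the length of the whole list at this FDR, which was 141158 and 192201 in ZR751shLucif and 28599 and 109586 in ZR751shMLL3. As a share of the list the windows held 0.143 and 0.151% in ZR751shLucif and 0.164 and 0.110% in ZR751shMLL3, which overlapped (exact permutation p = 1). Among the 50000 top-ranked peaks of each list there were 66 and 70, then 86 and 56. The windows make up 0.104% of the genome. At the FDR of 0.01, NCOA2 held more than any other of the 9 genes in each of the 4 libraries, with 73 and 114 in ZR751shLucif and 17 and 44 in ZR751shMLL3. Its window is also the longest, at 494 kb against 247 kb for MED1, the shortest, and these counts were not scaled by length.

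ERα peaks were called reproducible at an IDR of 0.7 or less, a permissive threshold that the study lists for ERα. The sets were fitted here, with 1242 peaks in ZR751shLucif and 1151 in ZR751shMLL3, and they differ from those of the study. Between true replicates the study lists more ERα peaks in ZR751shMLL3 than in ZR751shLucif, and fewer in its pooled comparison. The 9 windows held 2 of the peaks fitted here in ZR751shLucif cells, against 0 in ZR751shMLL3. Over all genes tested, 9.38 and 7.6% had at least 1. A legend of the study gives 0.2 instead, at which 0 peaks near the 9 genes were left in either line, an alternative added after seeing the data. The peak assigned to NRIP1 lies between genes, 202 kb from the gene's start and past its far end, at chr21:16235633-16236108. It ranked 23376 and 818 in ZR751shLucif, and the ZR751shMLL3 libraries listed the same place at ranks 1030 and 75690. It was the only ERα site of the 9 windows that was listed in all 4 libraries, where 1212 such sites were found across the genome and 7.87% of genes tested had 1. By rank alone, ZR751shLucif replicate 2 and ZR751shMLL3 replicate 1 placed this site higher than the other 2 libraries did, a split across the lines. The lists differ in depth, with 98579 and 3797 peaks at an FDR of 0.01 in ZR751shLucif, against 764 and 31912 in ZR751shMLL3. Ranks are therefore not equivalent between libraries. The ZR751shLucif peak passed that FDR in both replicates (−log10 FDR of 2.49 and 2.74). Both ZR751shMLL3 ranks lay beyond the number of peaks at that FDR in their lists.

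The peak assigned to MED1 (chr17:37640318-37640876) lies upstream of it, at position -33.1 kb from its start, in CDK12. It ranked 16744 and 12395 in ZR751shLucif, and neither ZR751shMLL3 library listed a peak there. At the exact element in EP300, peaks within 100 bp were listed in ZR751shLucif replicate 2 at rank 223005 and in ZR751shMLL3 replicate 2 at rank 38831, and in the other libraries none was. At the exact element by the start of NRIP1 no ERα list held a peak, at any rank.

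The best ranked ERα peak of each window differed between libraries. For NRIP1 it ranked 17544 and 818 in replicates 1 and 2 of ZR751shLucif, against 679 and 4909 in those of ZR751shMLL3, and 5.46% of genes tested had a peak that ranked as well as 679 in that library. In the other 3 libraries 67.9, 7.86 and 27.3% of genes tested had one as good as that of NRIP1. For NCOA2 the ranks were 2975 and 1840, then 705 and 6746, and 21.1, 14.2, 5.74 and 34.4% of genes had one as good. For CREBBP they were 1847 and 6751, then 3327 and 3431, and 13.9, 30.8, 16.7 and 20.3% of genes had one as good. Such ranks are thus common among genes, and neither of these 2 windows held a reproducible peak. The order of the libraries differed from gene to gene. For EP300 the ranks were 11494 and 1667, then 88116 and 4317, and for CARM1 they were 11137 and 29141, then 83087 and 1761.

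**Figure D4:**
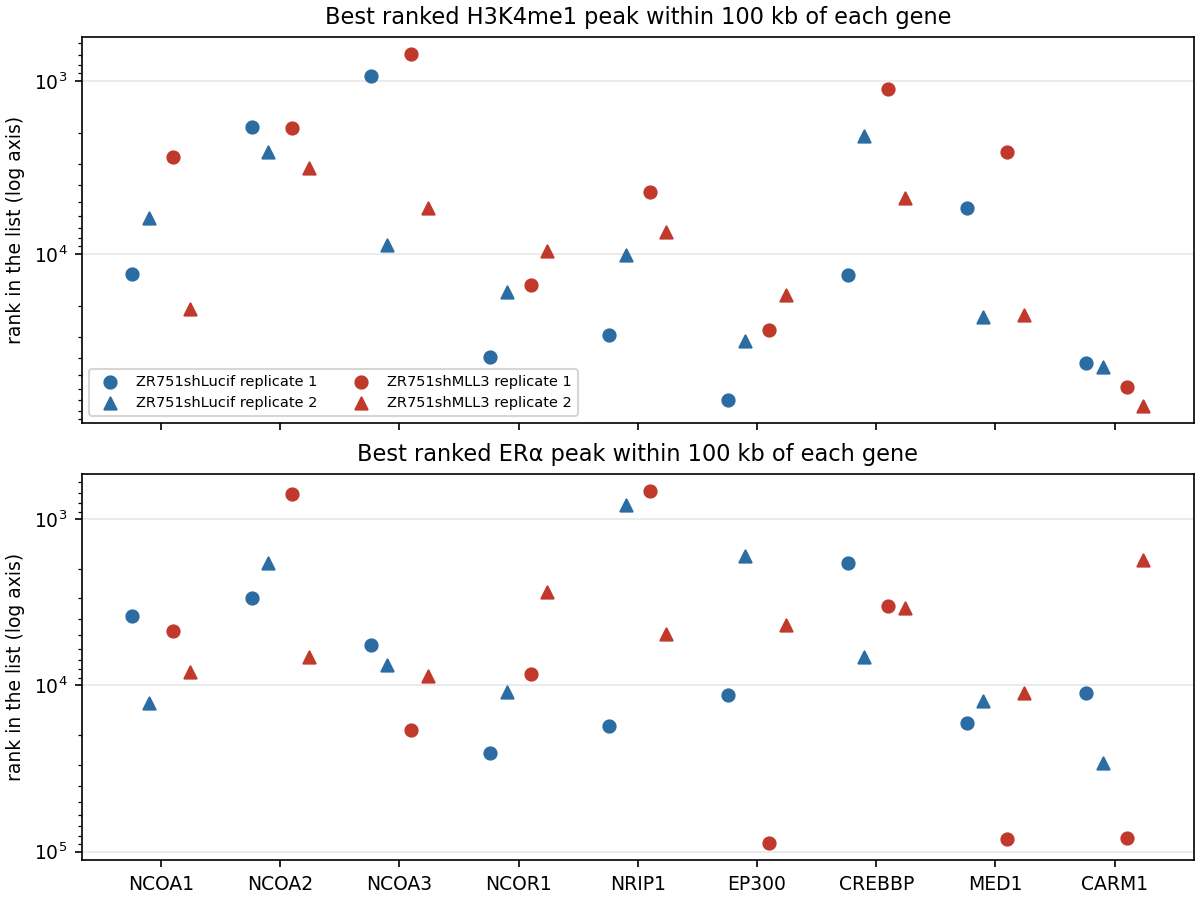
Rank (log axis, best at the top) of the best ranked H3K4me1 peak (upper panel) and ERα peak (lower panel) within 100 kb of each gene in each library, with circles for replicate 1 and triangles for replicate 2. Points of the lines are interleaved for most genes, with exceptions in each panel. For H3K4me1, NCOR1, NRIP1 and EP300 ranked better in both ZR751shMLL3 libraries, and CARM1 in both ZR751shLucif libraries. For ERα, NCOR1 ranked better in both ZR751shMLL3 libraries, and NCOA3 in both ZR751shLucif libraries. The replicates of a line can lie far apart, as for NRIP1 with ERα in ZR751shLucif (17544 and 818).

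At an FDR of 0.01 the 9 windows held 107 and 4 ERα peaks in ZR751shLucif, against 2 and 30 in ZR751shMLL3 cells. On average these were 55.5 ± 72.8 (SD, n = 2) and 16 ± 19.8 (SD, n = 2), a difference of -39.5 that was smaller than the spread between the control libraries (two-sided p = 0.6667, exact permutation test). Nearly all of the control peaks came from ZR751shLucif replicate 1, and without it the difference was 12 peaks. By the library names, ZR751shLucif replicate 2 belongs to another series of libraries than the other ERα libraries and shares that series with the ZR751shLucif input. It is the single ERα library of that series, which therefore gives no comparison of its own. Within the remaining series the counts were 107 against 2 and 30. These counts follow the length of each whole list at this FDR. The lists held 98579 and 3797 peaks in ZR751shLucif, against 764 and 31912 in ZR751shMLL3. As a share of the list the windows held 0.1085 and 0.1053% in ZR751shLucif, against 0.2618 and 0.09401% in ZR751shMLL3. Those shares overlapped between the lines, and the windows make up 0.104% of the genome. Among the 50000 top-ranked peaks there were 59 and 51 in ZR751shLucif and 34 and 48 in ZR751shMLL3, with both knockdown libraries lower (difference -14, exact permutation p = 0.3333).

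SP1, a factor that binds GC-rich promoters, was read as a further measurement on the same genes. No reproducible SP1 peak (IDR of 0.5 or less) lay within 1 kb of the start of any of the 9 genes in either line, where 1.73% of genes tested had one in ZR751shLucif and 7.84% in ZR751shMLL3. Within the 100 kb windows there was 1 reproducible peak in ZR751shLucif (10.1% of genes tested had at least 1) and there were 2 in ZR751shMLL3 (31.9%). NCOA2 had one in both lines just after its start, 1.70 kb after it in ZR751shLucif (chr8:71314109-71314514, ranks 1564 and 3579) and 1.57 kb after it in ZR751shMLL3 (chr8:71314262-71314761, ranks 22405 and 3690). The other was at NCOA1, 99.0 kb after its start in an intron, with ranks of 1222 and 57370 in ZR751shMLL3. The ZR751shLucif lists held 0 SP1 peaks at an FDR of 0.01 anywhere in the genome, and those of ZR751shMLL3 held 204178 and 12065.

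Single libraries listed SP1 at more of the starts. In ZR751shMLL3 replicate 2 a peak lay within 1 kb of 7 of the 9 starts, where 76.9% of genes tested had one, and the best placed were those at NCOA3 (rank 1567), NCOA1 (6995) and CARM1 (9597). In the other libraries 0 to 3 of the 9 starts had one, against 24.7 to 28.8% of genes tested. The NCOA3 start also had one in ZR751shLucif replicate 1, at rank 23114. In RefSeq promoters (GRCh38.p14, 250 bases before to 50 after a start), the GC box bound by SP1 was searched as GGGCGG on both strands. NCOA2, on chromosome 8, was left out of this count. The box was found in 9 of the 15 promoters of the other 8 genes, those being promoters of NCOA1, CREBBP, CARM1 and NRIP1. Of all 35116 promoters of this length, 45.0% held it. The promoters of NCOA3, EP300, MED1 and NCOR1 held none.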

How the data were processed

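The genes and the wider list were chosen with earlier results of these data known. The authors aligned reads to hg19, with TopHat2 2.0.13 for RNA and BWA 0.7.5a-r405 for ChIP, and deposited gene FPKM from Cuffnorm 2.2.1, with 1 entry per gene named by RefSeq transcripts (versions from the methods and the submitters' processing notes). For ChIP-seq they deposited SPP peak lists, 1 per library, with a signal and a −log10 FDR per peak, called against the input. The FPKM table gives no counts, so no interval for counting error could be made.

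Identifiers were matched to RefSeq symbols, 22894 of 23500 (97.4%). limma 3.58.1 in R 4.3.3 compared 2 ZR751shMLL3 with 2 ZR751shLucif libraries on log2(FPKM + 0.5), with Benjamini-Hochberg adjustment over all genes tested. This stands in for the linear regression of the study, but it is not the same analysis. The study first removed surrogate variables, which the main fit did not, and it reported far more changed genes. With 1 surrogate variable removed, 1682 of 11134 genes were called here, against 1 in the main fit. Genes on GRCh37 (GENCODE 44) gave windows of 100 kb beyond both ends, and 10889 genes tested had one. Replicate peaks sharing 1 bp were ranked by signal and given an IDR from a Gaussian copula mixture, tested on simulated data (Python 3.11.15, numpy 2.4.6, scipy 1.17.1). Exact permutation tests were two-sided. Alternatives were other pseudocounts, filters, normalizations, a replicate block, a surrogate variable, GC and length trends, left-out libraries, and other peak thresholds and windows. The named genes were all 9, KMT2C, ESR1, the 3 largest changes each way of the wider list and the nearest gene to each of the 9, and of peaks the best ranked reproducible one for each gene and mark. The other reproducible peaks are named as well, since they number under 12. Some results that this rule selects are not reported here. Protein sequences were not used here. Promoter sequences are from RefSeq (GRCh38.p14).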

Additional observations from a re-analysis of the deposited data

How the results depend on the processing

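No alternative called any of the 9 coregulators, and the smallest limma adjusted p (Benjamini-Hochberg) in any of them was 0.124, for NCOA2 without ZR751shLucif replicate 2. Over all genes the count called was 1682 with 1 surrogate variable removed and 1269 without ZR751shLucif replicate 2, against 1. Of the 9, 0 did not overlap between lines with a mean log2 filter of 3 (which kept 5 of them), 2 with the GC content trend removed, 2 with the GC and length trend removed, and 2 to 8 with a library left out. Over all genes these shares were 42.9, 37.4, 36.6 and 59.1 to 84.1%, the last being high because 1 library is compared with 2. Their median log2 fold change was -0.0098 at that filter and -0.13 to 0.26 with a library left out. Of the wider list 7 genes were called with the surrogate variable removed (CTBP1, HDAC2, PELP1, PHB2 and SAFB among them) and 0 to 6 with a library left out.

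Directions turned with a library left out. The ranges were -0.33 to 0.97 for NCOA2, -0.74 to 0.20 for NCOA3, -0.15 to 0.31 for NCOR1, -1.06 to 0.039 for NRIP1, -0.063 to 0.34 for EP300, -0.022 to 0.62 for CREBBP, -0.24 to 0.22 for MED1 and -0.30 to 0.029 for ESR1. MED1 was 0.057 with quantile normalization, 0.18 with the GC trend removed and 0.15 with GC and length removed. CARM1 was 0.013 with quantile normalization and ESR1 0.018 with the GC trend removed. The cause was not tested.

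With the replicate number as a block, 0 of the 9 were called and their median stayed at 0.08, while 33 genes were called over all genes. The numbers mark no shared culture in the labels, and the deviations of same-numbered libraries correlated at 0.0374, so they were not treated as pairs.

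The H3K4me1 count per library differed by 3 among the 50000 top-ranked peaks. The ERα count differed by 0 at an FDR of 0.001 and by -91 to 12 with a library left out, 12 being the value without ZR751shLucif replicate 1. At an IDR of 0.05 the order of the lines turned, with 0 reproducible H3K4me1 peaks in ZR751shLucif and 2 in ZR751shMLL3. Those in ZR751shLucif numbered 103 at an FDR of 0.01 in both replicates and 15 among the 50000 top-ranked, and those in ZR751shMLL3 15 and 15 by the same rules. Reproducible ERα peaks in ZR751shLucif numbered 0 at an IDR of 0.05 or 0.2, 1 at an FDR of 0.01 in both replicates, 0 at a reciprocal overlap of 50%, 1 in windows of 50 kb and 0 in windows of 20 kb. With 2 libraries per line, an exact permutation test cannot go below 0.3333, and the number of fragments behind an FPKM is not given.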
